A study of Mus musculus with 12 samples.

Results

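The genes described here are 43 mouse genes of G2 phase and mitosis, taken from a fixed list of symbols that was matched to the Ensembl identifiers of the count table without their version numbers. All 43 were found among the 55487 genes of the table, and all 43 passed the filter on low counts, as did 18109 genes in total. RNA was sequenced in bulk from 12 libraries of mouse epiblast stem cells (EpiSCs), a primed pluripotent cell type obtained here by conversion of embryonic stem cells, that were grown as embryoid bodies. Every library came from cells with a doxycycline-inducible FLAG-tagged transgene of Mixl1, whose homeobox protein acts in the primitive streak, and the study asked how the timing of its induction alters expression. NoDox_d2 and NoDox_d4 were embryoid bodies collected on days 2 and 4 without doxycycline. D1Dox_d2 and D3Dox_d4 were collected on days 2 and 4 with doxycycline at 1 µg/mL, with 3 libraries in each of the 4 groups. The number after the D is not defined in the labels. No cells without the transgene received doxycycline, so effects of doxycycline itself and of Mixl1 cannot be told apart. The labels name no separate cultures or clones, and all p-values therefore speak of the spread among these libraries alone, which may be technical.

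Cells enter mitosis when cyclin A and cyclin B activate the kinase Cdk1, and they leave it when the anaphase-promoting complex (APC/C) marks cyclin B and securin for destruction. In between, kinetochores attach chromosomes to spindle microtubules, the spindle checkpoint holds the APC/C back until every chromosome is attached, and the midzone and contractile ring divide the cell. Most of these genes are transcribed mainly in G2 and mitosis. Their promoters are bound by the MuvB complex with B-Myb and FoxM1 at the CHR (cell cycle genes homology region) and by NF-Y at CCAAT boxes. Their RNA can therefore change with the share of cycling cells in a population, and also with the RNA per cycling cell.

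The promoters are shown because the genes moved together in 1 group. RefSeq promoters on GRCm38.p6, from 250 bases before to 50 bases after an annotated start, were available for 36 of the 43 genes. Those of Ccna2, Cdc25c, Aurkb, Incenp, Spc24, Tpx2 and Kif20a were not analysed here. The CHR word TTTGAA was searched on both strands, with each word searched independently of any overlap with another. It was present in 25 of the 36 (69.4%), against 20.2% of the 27025 genes in the same table. Its variant TTTAAA was present in 10 (27.8% against 14.9%), and the word CCAAT in 27 (75% against 41.1%). TTTGAA and CCAAT occurred together in 1 promoter for 22 of the 36 genes (61.1%, against 8.0% of all genes). These are matches of letters and are not shown to be sites. The windows below centre on a TTTGAA word within 50 bases of the start, in capitals, with 12 bases on each side, written 5′ to 3′ on the strand of the gene. A word on the opposite strand reads TTCAAA. They belong to genes whose values are described further on, including Bub3, the only one of the 43 that was higher at day 4 with doxycycline.
Bub3, chr7:131560315-131560344, plus strand: gagccgttggcgTTCAAAatcagccaatga
Spc25, chr2:69206172-69206201, minus strand: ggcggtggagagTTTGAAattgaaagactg
Kif23, chr9:61946780-61946809, minus strand: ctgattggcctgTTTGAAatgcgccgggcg
Cenpf, chr1:189688067-189688096, minus strand: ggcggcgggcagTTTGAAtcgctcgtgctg
Ttk, chr9:83834684-83834713, plus strand: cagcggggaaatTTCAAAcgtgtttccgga
Plk1, chr7:122159453-122159482, plus strand: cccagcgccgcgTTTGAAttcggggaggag
Ccnb2, chr9:70421533-70421562, minus strand: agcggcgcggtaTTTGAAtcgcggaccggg
Cdk1, chr10:69352910-69352939, minus strand: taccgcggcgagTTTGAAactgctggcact

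The spacing of the words is seen in the 120 bases before the start of Top2a and of Kif11, in which both TTTGAA and CCAAT are in capitals on either strand. Top2a held 3 CCAAT words and 1 TTTGAA word there, and Kif11 held 1 of each.
Top2a, chr11:99024190-99024309, minus strand: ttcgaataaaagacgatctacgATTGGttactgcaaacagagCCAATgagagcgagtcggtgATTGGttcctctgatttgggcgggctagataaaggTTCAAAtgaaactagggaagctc
Kif11, chr19:37376262-37376381, plus strand: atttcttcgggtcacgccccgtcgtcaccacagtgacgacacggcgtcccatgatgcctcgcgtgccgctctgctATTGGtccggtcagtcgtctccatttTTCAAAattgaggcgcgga

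**Figure D1:**
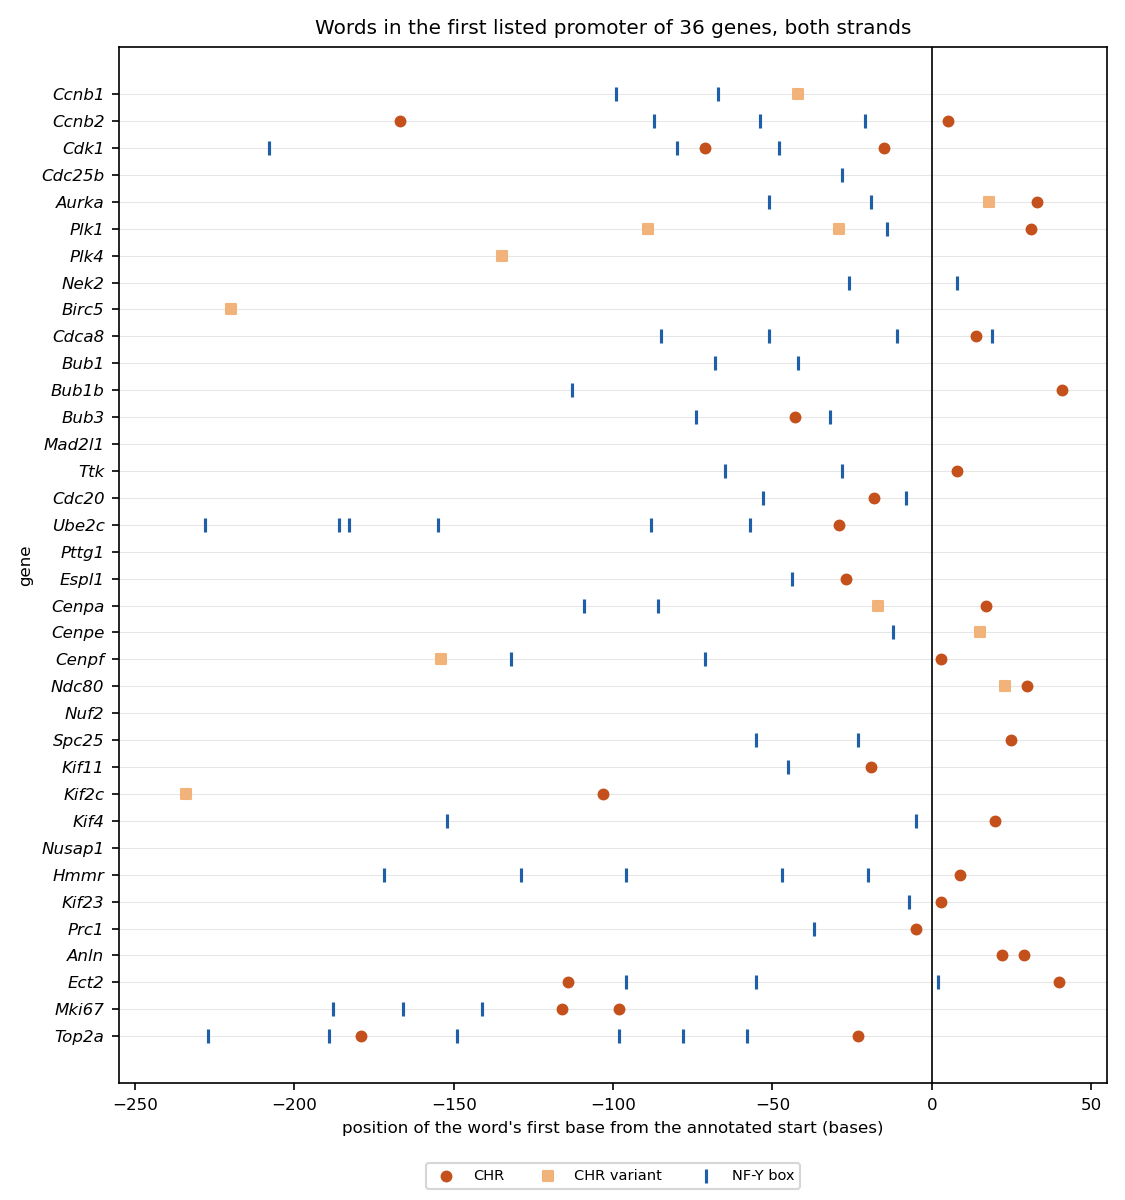
Positions of the CHR word, its variant and the NF-Y box (the word CCAAT) in the first listed promoter of each of the 36 genes, in bases from the annotated start (horizontal axis), on either strand. Of the 25 genes with a CHR word, 23 hold one within 50 bases of the start, as do Kif23 and Cenpf at position 3, Cdk1 at -15 and Top2a at -23.

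Libraries held 24100487 to 28020036 counts, and the lowest count of any of the 43 genes in any library was 566 (Cdc25b). Replicate 1 of NoDox_d2 and replicate 1 of NoDox_d4 stood apart from the others of their groups, with correlations of log2 CPM across genes of 0.957 to 0.961 against 0.990 and 0.991. Mixl1 matched the labels in all but 1 library. It was at 362 to 478 CPM (read counts scaled to a common library size) in the 6 doxycycline libraries. Mixl1 was at 0.593 to 1.83 in 5 of the NoDox libraries, but at 91.0 in the library labelled NoDox_d2 replicate 1. The gene T was at 1260 CPM in that library, at 100 and 142 in the other NoDox_d2 libraries and at 51.1 to 54.8 in D1Dox_d2. Why that library differs was not tested. Epiblast markers (8 genes, among them Pou5f1, Sox2 and Nanog) were detected in every library, with Nanog between 12 and 253 CPM. Their sums were 1240 to 1340 CPM in NoDox_d2, 605 to 667 in D1Dox_d2, 443 to 774 in NoDox_d4 and 399 to 440 in D3Dox_d4. Sox2 alone was at 303, 248 and 258 CPM in D3Dox_d4, against 182, 169 and 147 in D1Dox_d2. Pou5f1 was at 62.5, 72.3 and 58.6 in D3Dox_d4 and at 268, 249 and 250 in D1Dox_d2. From D1Dox_d2 to D3Dox_d4, 7 of the 8 fell and none rose (edgeR), where 21.4% and 22.6% of all genes tested did.

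The mitotic genes were lower in D3Dox_d4 than in any other group. Their mean log2 CPM was 6.45, 6.49 and 6.48 in the D3Dox_d4 libraries and lay between 6.83 and 7.04 in the other 9. Summed over the 43 genes, D3Dox_d4 held 4570 to 4740 CPM, and the other groups held 5890 to 6550 (NoDox_d2), 6020 to 6500 (D1Dox_d2) and 6150 to 6810 (NoDox_d4). In 31 of the 43 genes all 3 D3Dox_d4 libraries were below all of the other 9, and in 1 gene, Bub3, they were above. Against NoDox_d4 alone, D3Dox_d4 was below without overlap in 36 of the 43 genes (83.7%) and in 18.6% of all genes tested. The shares of all genes below or above all of the other 9 were not computed, so the counts of 31 and 1 have no share to be read against. In bulk RNA, fewer cycling cells and less RNA per cycling cell cannot be told apart.

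**Figure D2:**
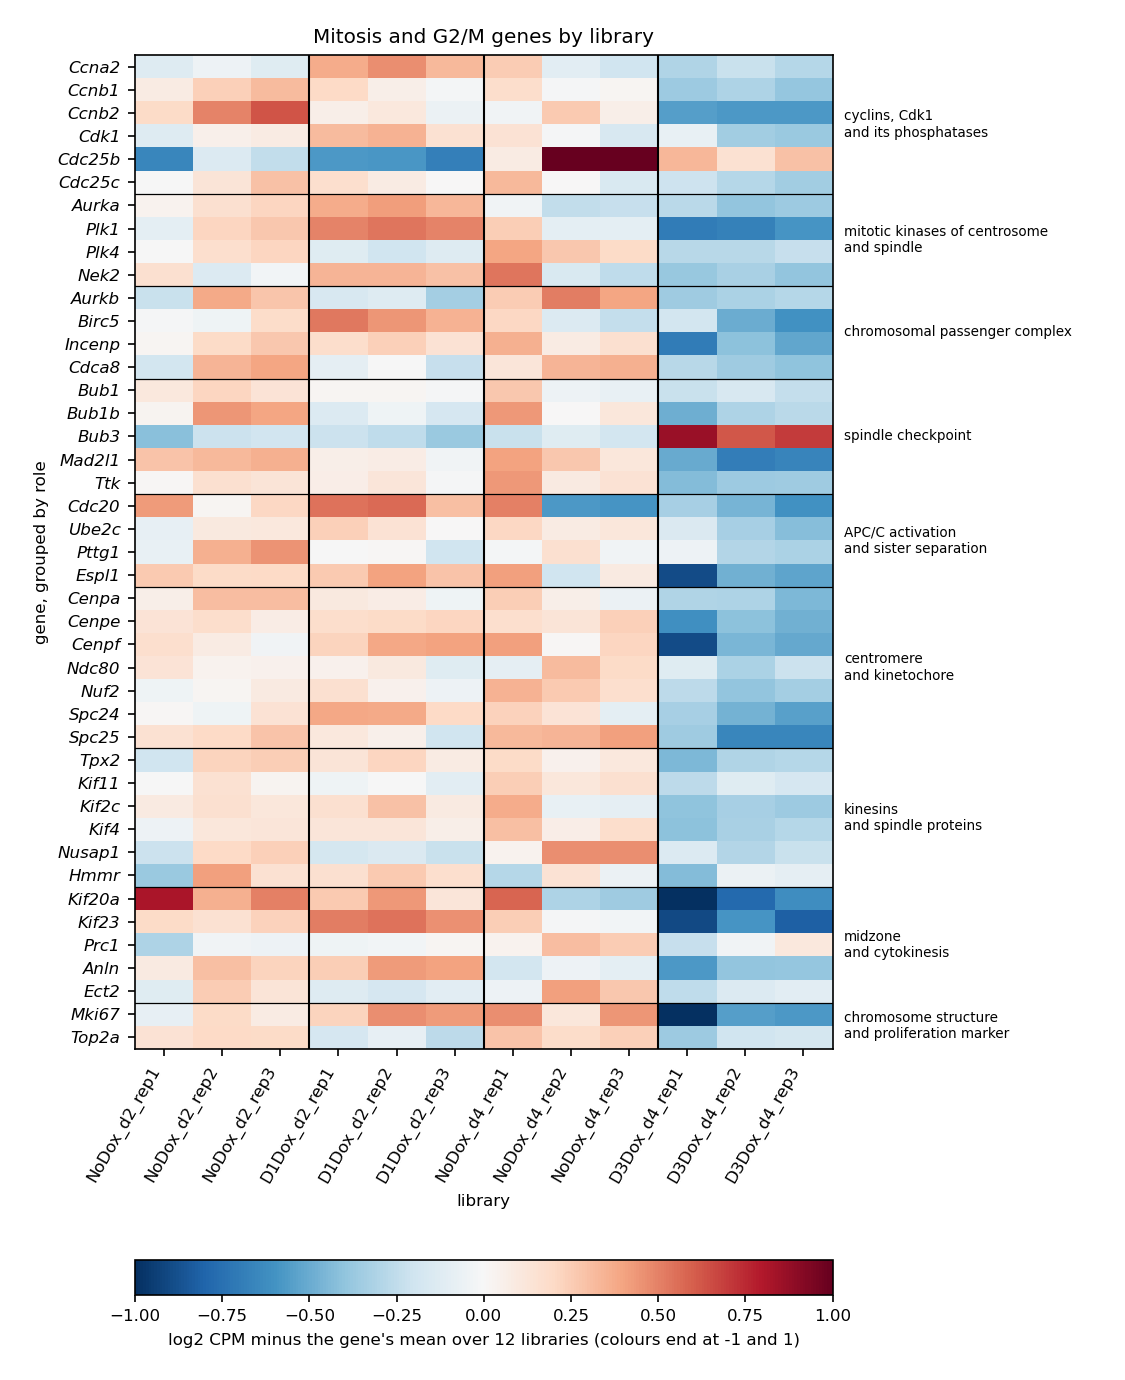
Log2 CPM of each of the 43 genes (rows, grouped by role) in each of the 12 libraries (columns), minus the gene's mean over the 12 libraries, with colours that end at -1 and 1. The 3 D3Dox_d4 columns are blue in nearly all rows, while Bub3 is red there and Cdc25b is lowest on day 2.

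Per base of exon (RPKM, the CPM divided by the exon length in kilobases), Cdc20 and Top2a had the highest means over the 12 libraries, at 76.2 and 74.3, and Cdc25c had the lowest, at 7.10. The reads were counted without regard to strand. The counts of 6 genes are uncertain, because an opposite-strand gene covers over 10% of their exon length: Kif20a (29.3%, with Cdc23), Ube2c (22.8%, with Tnnc2), Kif4 (15.1%), Cdc25c (12.7%), Ccna2 (12.5%) and Prc1 (11.1%).

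At day 4, D3Dox_d4 was compared with NoDox_d4 to ask what doxycycline changed in embryoid bodies of the same age. With the quasi-likelihood test of edgeR at an adjusted p under 0.05, 30 of the 43 genes fell and 1 rose. Among all genes tested, 10.2% fell and 13.4% rose. The median log2 fold change was -0.48 over the 43 genes and -0.03 over all genes tested, and 42 of the 43 lay below 0. Libraries of the groups did not overlap, with D3Dox_d4 the lower, for 36 genes (83.7%), against 18.6% of all genes tested. The changes were moderate: the largest fall was in Mki67, to 0.469 times the NoDox_d4 level, and the smallest called was in Anln, of 0.34 on the log2 scale. Of the 31 calls, 21 were kept under every alternative run. Without both NoDox libraries numbered 1, 33 genes were called lower, with Cdc25b, Pttg1 and Prc1 added, and 1 higher, where 17.9% and 20.6% of all genes tested were.

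At day 2, D1Dox_d2 was compared with NoDox_d2, and few mitotic genes were called. Ccna2, Plk1 and Kif23 rose (3 genes), and 5 fell, Top2a, Ccnb2, Plk4, Mad2l1 and Bub1b. Among all genes tested 14.9% rose and 13.4% fell, and of the 43 genes 6.98% and 11.6%. The median log2 fold change of the 43 genes was 0.02, with 22 above 0 and 21 below. The call of Ccna2 was the only one of the 8 kept under every alternative. Without both NoDox libraries numbered 1, 8 genes were called higher and 13 lower, where 26.8% and 26.4% of all genes tested were. The count higher dropped to 1 without any 1 of D1Dox_d2 replicates 1, 2 and 3, NoDox_d2 replicates 1 and 2 and D3Dox_d4 replicate 3, and was 6 without NoDox_d4 replicate 1. Over all genes tested, 9.94% to 20.2% were called higher in the fits that gave 1, and 18.2% in that with 6. The count lower was 2 without D1Dox_d2 replicate 1 or 2, 1 without NoDox_d2 replicate 2 or 3, 0 without D1Dox_d2 replicate 3 (edgeR, with 5 genes at an unadjusted p under 0.05) and 10 without NoDox_d2 replicate 1. Over all genes tested, the share lower was 8.45% and 7.15% without D1Dox_d2 replicates 1 and 2, and 6.43% without replicate 3. It was 7.4% and 6.99% without NoDox_d2 replicates 2 and 3, and 19.5% without NoDox_d2 replicate 1.

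**Figure D3:**
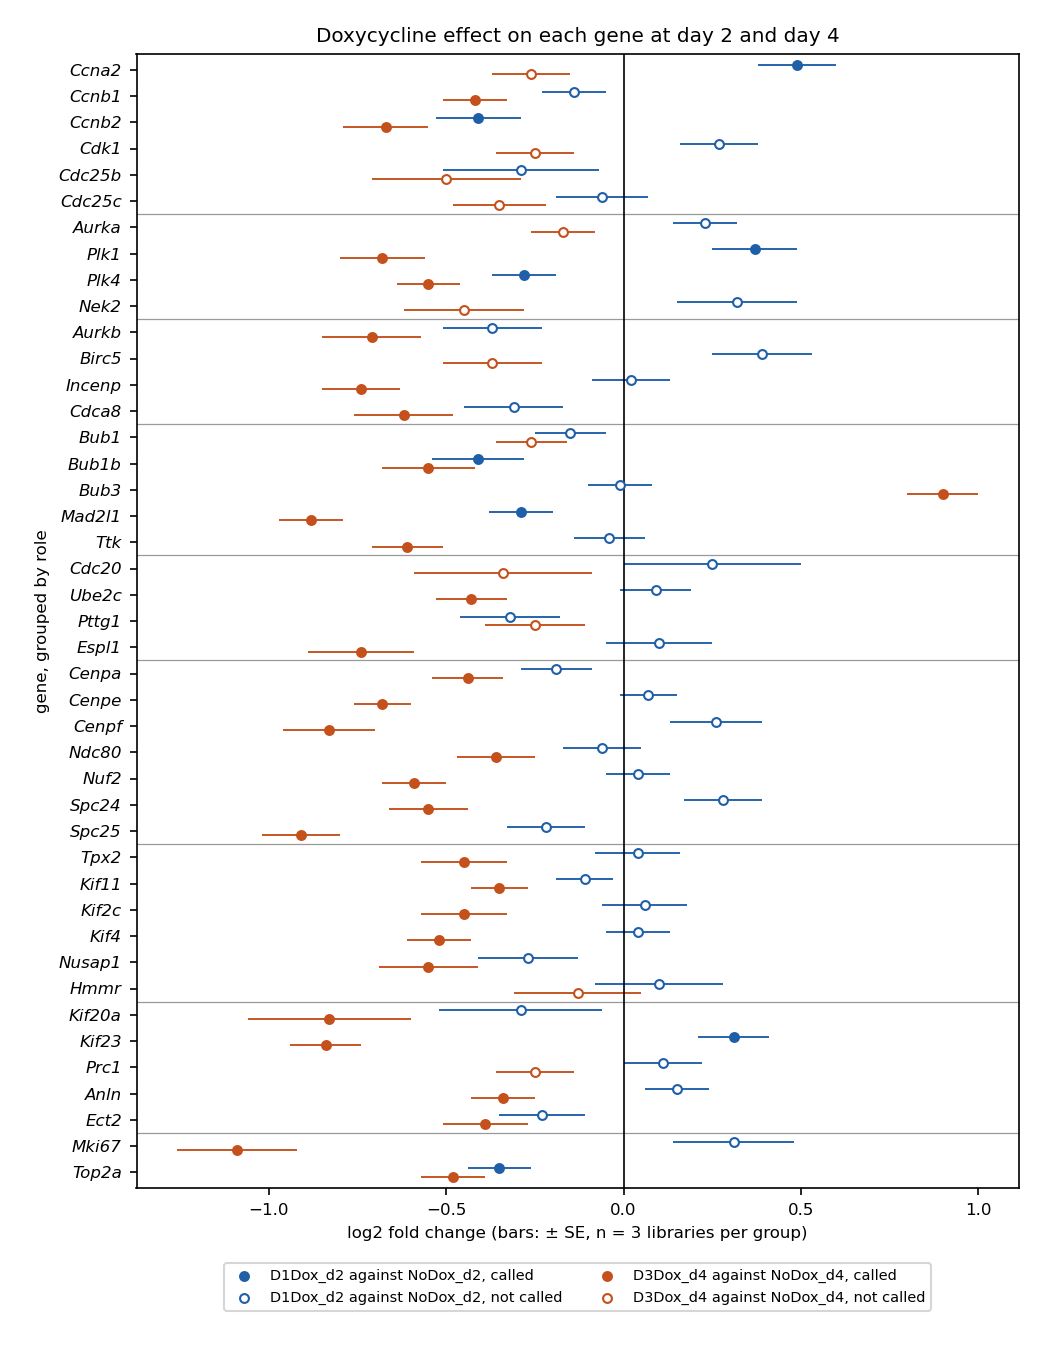
Log2 fold change of each gene with doxycycline at day 2 (blue) and day 4 (orange), with bars of ± 1 SE and n = 3 libraries per group; filled points passed an adjusted p of 0.05 in edgeR. Orange points lie left of 0 for 42 of the 43 genes, and blue points lie on both sides.

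Markers of other cells also differed between the groups. All 8 markers of postmitotic neurons rose at day 4 with doxycycline (edgeR), and their summed level was 1560 to 1760 CPM in D3Dox_d4, against 192 to 564 in NoDox_d4, 369 to 457 in D1Dox_d2 and 255 to 368 in NoDox_d2. Of 14 fibroblast markers 9 rose at day 2, with sums of 2500 to 3100 in D1Dox_d2, 643 to 1450 in NoDox_d2, 417 to 1340 in NoDox_d4 and 601 to 787 in D3Dox_d4, and at day 4 2 of them rose and 3 fell. Of 6 blood and endothelial markers 4 passed the filter, with sums of at most 41.3 in any library, and Hbb-bh1 was at 0 in every library of D1Dox_d2, D3Dox_d4 and NoDox_d2. The part of these cells in the levels of the mitotic genes was not tested.

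Whether the day 4 effect differs from the day 2 effect was tested directly, as an interaction over all 12 libraries. It was lower at day 4 for 17 genes and higher for 1 (Bub3), where 6.24% and 6.66% of all genes tested were called in those directions. The median difference was -0.49 over the 43 genes and 0.00 over all genes tested, and it was -0.32 over the 43 without both NoDox libraries numbered 1. In 10 of the 18 genes the call was kept under every alternative run: Bub3, Ccna2, Cenpe, Cenpf, Incenp, Kif23, Mki67, Nuf2, Plk1 and Spc24. The count of genes lower fell to 10 without D1Dox_d2 replicate 2 and to 11 without D3Dox_d4 replicate 3. Of all genes tested, 3.2% and 3.36% were called lower in those fits.

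The cyclins and Cdk1 open mitosis. Ccnb1, the B-type cyclin of the mitotic kinase (ENSMUSG00000041431, chromosome 13, 100778650 to 100786570, minus strand, GRCm38), stood at 246, 216 and 221 CPM in NoDox_d4 and at 169, 176 and 167 in D3Dox_d4. At day 2 it was 230, 257 and 271 in NoDox_d2 and 250, 226 and 215 in D1Dox_d2. The day 4 groups did not overlap and the day 2 groups did. Ccnb1 fell by 0.42 ± 0.09 on the log2 scale at day 4 (SE, edgeR adjusted p = 0.00781) and had a fold change of -0.14 ± 0.09 at day 2 (0.299).

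Ccnb2, the other B-type cyclin of the list, was at 84.1, 103 and 89.3 CPM in NoDox_d4 and at 58.8, 57.6 and 57.6 in D3Dox_d4. Its day 2 values were 97.9, 121 and 133 in NoDox_d2 and 89.4, 92.3 and 82.7 in D1Dox_d2. Neither pair of groups overlapped, and the doxycycline group was the lower on both days. It fell by 0.67 ± 0.12 at day 4 (edgeR adjusted p = 0.00190) and by 0.41 ± 0.12 at day 2 (0.0223), where the call was lost without NoDox_d2 replicate 2 (0.0697) or 3 (0.100) or D1Dox_d2 replicate 3 (0.0850).

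Ccna2, the cyclin of S phase and G2, went up at day 2. Its 3 D1Dox_d2 libraries held 251, 268 and 243 CPM, against 177, 187 and 178 in NoDox_d2. Later, 231, 180 and 168 were found in NoDox_d4 and 157, 166 and 159 in D3Dox_d4. D1Dox_d2 was above every other library. Ccna2 rose by 0.49 ± 0.11 at day 2 (edgeR adjusted p = 0.00736) and was at -0.26 ± 0.11 at day 4 (0.108), and the effects differed by -0.75 ± 0.16 (0.0111).

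Cdk1, the kinase that these cyclins activate, was at 176, 159 and 143 CPM in NoDox_d4 and 152, 126 and 123 in D3Dox_d4, with overlap. It was at 146, 165 and 169 in NoDox_d2 and 198, 203 and 177 in D1Dox_d2, with none. Neither fold change passed the test, at -0.25 ± 0.11 (edgeR adjusted p = 0.135) for day 4 and 0.27 ± 0.11 (0.0998) for day 2. Cdc25b, a phosphatase that activates Cdk1, differed from the others in that it was higher on day 4 than on day 2. It was at 25.1, 36 and 33.3 in NoDox_d2, 26.5, 26.3 and 24.5 in D1Dox_d2, 41.7, 79.2 and 80.1 in NoDox_d4 and 49.7, 43.8 and 48.3 in D3Dox_d4. All day 4 libraries were above all day 2 libraries, and NoDox_d4 replicate 1 alone overlapped D3Dox_d4. The day 4 fold change of -0.50 ± 0.21 was not called (0.114), but it was -0.75 ± 0.14 (0.00244) without that library, and without both NoDox libraries numbered 1 Cdc25b was called lower at day 2 as well (-0.43 ± 0.09, 0.000960). Its relative Cdc25c was not called on either day, at -0.35 ± 0.13 (0.0779) for day 4.

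Plk1, a kinase of centrosome maturation and mitotic entry (chromosome 7, 122159439 to 122169873, plus strand), moved in opposite directions. It was at 108, 134 and 139 CPM in NoDox_d2 and 163, 168 and 164 in D1Dox_d2, and then at 138, 108 and 109 in NoDox_d4 and 71.4, 72.7 and 77.0 in D3Dox_d4. Doxycycline libraries were the higher at day 2 and the lower at day 4, without overlap. Plk1 rose by 0.37 ± 0.12 at day 2 (edgeR adjusted p = 0.0344) and fell by 0.68 ± 0.12 at day 4 (0.00169), with a difference of -1.06 ± 0.17 (0.00319). The day 2 call was lost without any 1 D1Dox_d2 library, NoDox_d2 replicate 1 or 2 or D3Dox_d4 replicate 2 or 3, at an adjusted p of up to 0.107 (without D1Dox_d2 replicate 2), and without the filter on low counts (0.0715), and the day 4 call was kept under every alternative.

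Plk4, the kinase of centriole duplication, was at 92.2, 84.5 and 79.9 CPM in NoDox_d4 and 58.0, 57.7 and 59.7 in D3Dox_d4. At day 2 NoDox_d2 held 70.0, 78.7 and 81.1 and D1Dox_d2 64.5, 61.1 and 64.1. It was the lower with doxycycline on both days, by 0.55 ± 0.09 at day 4 (edgeR adjusted p = 0.00103) and 0.28 ± 0.09 at day 2 (0.0353). The day 2 call was lost without any 1 of the libraries of those groups except NoDox_d2 replicate 1, at 0.127 without NoDox_d2 replicate 3, and with no filter on low counts (0.122) or only those libraries in the fit (0.0553). Aurka, a kinase of spindle poles, was at 121, 125 and 118 in D1Dox_d2 and 96.4, 105 and 109 in NoDox_d2, and at 77.9, 71.3 and 73.1 in D3Dox_d4 and 91.5, 79.3 and 80.1 in NoDox_d4. Groups did not overlap on either day, yet Aurka was not called, at 0.23 ± 0.09 for day 2 (0.0669, and 0.0416 without NoDox_d4 replicate 1) and -0.17 ± 0.09 for day 4 (0.181). Nek2, a kinase of centrosome separation, was not called either, with -0.45 ± 0.17 at day 4 (0.0831).

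Of the chromosomal passenger complex, which corrects faulty attachments, 3 of 4 genes fell at day 4. Incenp, its scaffold, was at 198, 163 and 173 CPM in NoDox_d4 and 95.1, 116 and 108 in D3Dox_d4, and at 157, 176 and 187 in NoDox_d2 and 174, 182 and 170 in D1Dox_d2. D3Dox_d4 was below all other libraries. Incenp fell by 0.74 ± 0.11 at day 4 (edgeR adjusted p = 0.000527) and was at 0.02 ± 0.11 at day 2 (0.913). The kinase Aurkb fell by 0.71 ± 0.14 (0.00359) and Cdca8, which codes for borealin, by 0.62 ± 0.14 (0.00759). Birc5, which codes for survivin, was not called on either day, yet its effects differed by -0.76 ± 0.20 (0.0267). That call was lost without any 1 D1Dox_d2 library, NoDox_d2 replicate 2 or D3Dox_d4 replicate 2 or 3, at up to 0.0808.

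The spindle checkpoint held the single gene that went against the rest. Bub3, a WD-repeat protein that brings Bub1 and BubR1 to kinetochores (chromosome 7, 131560222 to 131571895, plus strand), was at 213, 229 and 220 CPM in NoDox_d4 and 452, 383 and 404 in D3Dox_d4. It was at 187, 215 and 218 in NoDox_d2 and 215, 208 and 192 in D1Dox_d2. The D3Dox_d4 libraries were far above all other 9, which overlapped. Bub3 rose by 0.90 ± 0.10 at day 4 (edgeR adjusted p = 6.04e-05), to 1.87 times the NoDox_d4 level, and was at -0.01 ± 0.09 at day 2 (0.956). No other gene covers its exons, and the call was kept under every alternative.

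Mad2l1, Bub1b and Ttk, other genes of the checkpoint, fell. Mad2l1, which codes for the checkpoint effector Mad2, was at 206, 188 and 168 CPM in NoDox_d4 and 110, 96.5 and 98.9 in D3Dox_d4. At day 2 it was at 190, 195 and 200 in NoDox_d2 and 162, 165 and 152 in D1Dox_d2. No groups of the same day overlapped. Mad2l1 fell by 0.88 ± 0.09 at day 4 (edgeR adjusted p = 6.00e-05) and by 0.29 ± 0.09 at day 2 (0.0371), where the call was lost without any 1 of the same 5 libraries as for Plk4, at 0.128 without D1Dox_d2 replicate 3, and without the filter (0.0905).

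Bub1b, which codes for BubR1, was at 168, 225 and 217 CPM in NoDox_d2 and 150, 161 and 147 in D1Dox_d2, and at 224, 166 and 179 in NoDox_d4 and 118, 134 and 137 in D3Dox_d4. Doxycycline libraries were the lower on both days without overlap. It fell by 0.55 ± 0.13 at day 4 (edgeR adjusted p = 0.0120, and 0.0501 without D3Dox_d4 replicate 1) and by 0.41 ± 0.13 at day 2 (0.0394). The day 2 call was lost without any 1 D1Dox_d2 library, NoDox_d2 replicate 2 or 3 or D3Dox_d4 replicate 2, at up to 0.134. The checkpoint kinase Ttk fell by 0.61 ± 0.10 at day 4 (0.00120). Bub1, the kinase partner of Bub3, was not called, at -0.26 ± 0.10 (0.0702).

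**Figure D4:**
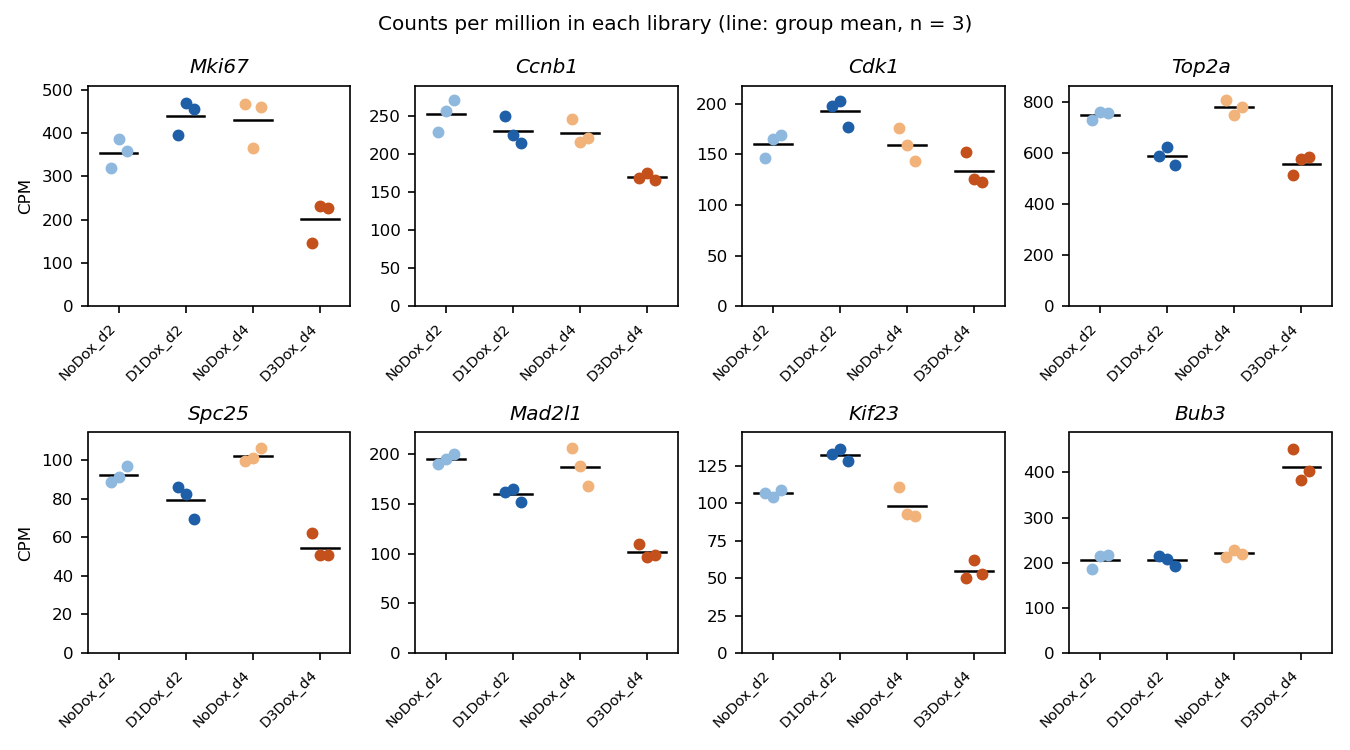
CPM of 8 genes in each library (points) with the group mean (line), 3 libraries per group, on axes that start at 0. D3Dox_d4 is lowest for Mki67, Ccnb1, Spc25, Mad2l1 and Kif23 and highest for Bub3, while Top2a is low in both doxycycline groups.

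Of the genes that activate the APC/C and separate sister chromatids, 2 of 4 fell at day 4. Espl1, the separase that cleaves cohesin, fell by 0.74 ± 0.15 (edgeR adjusted p = 0.00384) and Ube2c, the ubiquitin-conjugating enzyme of the APC/C, by 0.43 ± 0.10 (0.00970, and 0.0571 without D3Dox_d4 replicate 3). Cdc20, the coactivator that the checkpoint inhibits, was at 193, 90.9 and 90.0 CPM in NoDox_d4 and 108, 98.1 and 89.3 in D3Dox_d4. Replicate 1 of NoDox_d4 was far above the rest, and the fold change of -0.34 ± 0.25 was not called (0.363). Pttg1, which codes for securin, was at -0.25 ± 0.14 (0.212).

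Every gene of the centromere and kinetochore group fell at day 4, 7 of 7, with a median log2 fold change of -0.59. Spc25, a subunit of the Ndc80 complex that binds microtubules, was at 99.6, 101 and 106 CPM in NoDox_d4 and 62.1, 50.6 and 50.5 in D3Dox_d4. At day 2 it was at 88.4, 91.3 and 96.9 in NoDox_d2 and 85.9, 82.5 and 69.5 in D1Dox_d2. D3Dox_d4 was below all other libraries. It fell by 0.91 ± 0.11 at day 4 (edgeR adjusted p = 0.000150) and was at -0.22 ± 0.11 at day 2 (0.153). The other 3 subunits of that complex fell too, Nuf2 by 0.59 ± 0.09, Spc24 by 0.55 ± 0.11 and Ndc80 by 0.36 ± 0.11 (0.0353). The call of Ndc80 was lost without D1Dox_d2 replicate 1 or 2, D3Dox_d4 replicate 2 or 3, NoDox_d2 replicate 2 or 3 or NoDox_d4 replicate 2 or 3, at up to 0.135, with no filter (0.0982) and with only the day 4 libraries in the fit (0.0720), and that of the Spc25 difference (0.0150) without D3Dox_d4 replicate 3 (0.05).

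Cenpe, a kinetochore motor that moves chromosomes to the spindle equator, was at 147, 143 and 154 CPM in NoDox_d4 and 85.1, 98.1 and 93.7 in D3Dox_d4, and at 144, 147 and 137 in NoDox_d2 and 147, 149 and 152 in D1Dox_d2. Cenpf, a large protein of the outer kinetochore, was at 224, 171 and 195 in NoDox_d4 and 91.0, 123 and 118 in D3Dox_d4, and at 190, 179 and 165 in NoDox_d2 and 197, 221 and 223 in D1Dox_d2. Both were lowest in D3Dox_d4, with no overlap with any other library. Cenpe fell by 0.68 ± 0.08 at day 4 (edgeR adjusted p = 0.000134) and Cenpf by 0.83 ± 0.13 (0.00105), and their effects differed between days by -0.74 ± 0.11 (0.00262) and -1.09 ± 0.19 (0.00432). Cenpa, the histone H3 variant that marks centromeres, fell by 0.44 ± 0.10 (0.0106, and 0.0584 without D3Dox_d4 replicate 3).

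Among 6 kinesins and spindle proteins, 5 fell at day 4, within a narrow range. Kif4, a chromosome-bound kinesin, fell by 0.52 ± 0.09 (edgeR adjusted p = 0.00150) and Kif11, which pushes spindle poles apart, by 0.35 ± 0.08 (0.00836). Tpx2, a microtubule nucleator and activator of Aurora A, fell by 0.45 ± 0.12 (0.0159), Kif2c, a microtubule depolymerase, by 0.45 ± 0.12 (0.0182) and Nusap1, a microtubule-bundling protein, by 0.55 ± 0.14 (0.0143). The call of Tpx2 was lost without D3Dox_d4 replicate 1 (0.0593), that of Kif2c without any 1 D3Dox_d4 library (up to 0.0634) or with only the day 4 libraries in the fit (0.0718), and that of Nusap1 without replicate 2 or 3 of D3Dox_d4 or NoDox_d4 (up to 0.0584). Without NoDox_d4 replicate 1 Kif2c fell by 0.28 ± 0.09 (0.0354). Hmmr, a spindle-associated hyaluronan receptor, was not called, at -0.13 ± 0.18 (0.667). None of the 6 was called at day 2.

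At the midzone, Kif23, the kinesin of the centralspindlin complex (chromosome 9, 61915905 to 61946774, minus strand), had the lowest adjusted p of the difference between the days. It was at 107, 104 and 109 CPM in NoDox_d2 and 133, 136 and 128 in D1Dox_d2, and then at 111, 92.7 and 91.7 in NoDox_d4 and 50.0, 61.8 and 53.0 in D3Dox_d4. Doxycycline libraries were the higher at day 2 and the lower at day 4, without overlap. Kif23 rose by 0.31 ± 0.10 at day 2 (edgeR adjusted p = 0.0392) and fell by 0.84 ± 0.10 at day 4 (0.000180), a difference of -1.15 ± 0.15 (0.000960). The rise was lost without any 1 library of the day 2 groups, at 0.128 without D1Dox_d2 replicate 2, without D3Dox_d4 replicate 3 (0.0653), and without the filter (0.130).

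Anln, which codes for the contractile ring protein anillin, was at 115, 126 and 122 CPM in NoDox_d4 and 87.6, 99.4 and 99.9 in D3Dox_d4, and at 139, 161 and 153 in NoDox_d2 and 155, 176 and 173 in D1Dox_d2. The day 4 groups did not overlap and the day 2 groups did. It fell by 0.34 ± 0.09 at day 4 (edgeR adjusted p = 0.0208), a call lost without D3Dox_d4 replicate 1 or NoDox_d4 replicate 2 or 3 (up to 0.0677) and without the filter (0.0785). Kif20a, a midzone kinesin, fell by 0.83 ± 0.23 (0.0214), a call lost without D3Dox_d4 replicate 1 (0.0825) or 2 (0.0643) and with only the day 4 libraries in the fit (0.0620). It was at 159, 86 and 83.2 CPM in NoDox_d4 and 52.7, 62.2 and 69.2 in D3Dox_d4, and without the high NoDox_d4 replicate 1 it fell by 0.46 ± 0.15 (0.0471). Ect2, which activates RhoA at the cleavage furrow, fell by 0.39 ± 0.12 (0.0426), a call lost without any 1 D1Dox_d2 or D3Dox_d4 library, NoDox_d2 replicate 3 or NoDox_d4 replicate 2 or 3 (up to 0.156). Prc1, which bundles midzone microtubules, was not called, at -0.25 ± 0.11 (0.143).

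Mki67, the gene of the proliferation marker Ki-67, which coats mitotic chromosomes (chromosome 7, 135689784 to 135716361, minus strand), was at 467, 366 and 459 CPM in NoDox_d4 and 147, 231 and 228 in D3Dox_d4. At day 2 it was at 320, 386 and 358 in NoDox_d2 and 395, 468 and 455 in D1Dox_d2. D3Dox_d4 was below all other libraries, and its replicate 1 was the lowest. Mki67 fell by 1.09 ± 0.17 at day 4 (edgeR adjusted p = 0.000841) and was at 0.31 ± 0.17 at day 2 (0.190), with a difference of -1.40 ± 0.24 (0.00415).

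Top2a, the topoisomerase that untangles sister chromatids (chromosome 11, 98992943 to 99024189, minus strand), was lower with doxycycline on both days. It was at 732, 760 and 756 CPM in NoDox_d2 and 588, 626 and 554 in D1Dox_d2, and at 808, 751 and 780 in NoDox_d4 and 516, 576 and 586 in D3Dox_d4. Neither pair of groups overlapped. Top2a fell by 0.35 ± 0.09 at day 2 (edgeR adjusted p = 0.0115, and 0.0533 without D1Dox_d2 replicate 3) and by 0.48 ± 0.09 at day 4 (0.00202). The difference of these effects, -0.13 ± 0.12, was not called (0.488).

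Without doxycycline, day 4 was compared with day 2 to see what age alone changed, and few mitotic genes were called. Cdc25b rose by 1.09 ± 0.22 (edgeR adjusted p = 0.00853), while Aurka fell by 0.31 ± 0.09 (0.0465) and Anln by 0.32 ± 0.09 (0.0489). Among all genes tested 5.09% rose and 5.55% fell. The median of the 43 genes was 0.05, and -0.11 without both libraries numbered 1. None of the 3 calls was kept under every alternative. With only these libraries in the edgeR fit, 0 of the 43 genes were called (2 higher and 3 lower at an unadjusted p under 0.05), at 0.108 for Cdc25b. In that fit only 0.506% of all genes tested were called higher and 0.735% lower. DESeq2 on all libraries called 1 higher and 3 lower, where 6.65% and 7.02% of all genes tested were. Without both libraries numbered 1, 3 were called higher and 11 lower, where 13.4% and 11% of all genes tested were. The added falls were those of Ccnb1, Ccnb2, Plk1, Bub1, Bub1b, Cdc20, Pttg1, Cenpa and Kif20a. With the replicate number as a block, 2 genes were called higher and 1 lower, with Prc1 added and Aurka lost (0.0658). In that fit 4.94% and 5.23% of all genes tested were called. Both falls were lost without any 1 D1Dox_d2 library, D3Dox_d4 replicate 2 or 3, NoDox_d2 replicate 2 or 3 or NoDox_d4 replicate 2 or 3, at up to 0.165 for Aurka and 0.148 for Anln, and that of Anln also without NoDox_d4 replicate 1.

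The groups given doxycycline were also compared with each other, D3Dox_d4 against D1Dox_d2, a comparison that shares its libraries with the tests above and differs in day as well as in the label of induction. Of the 43 genes 2 rose and 28 fell, where 22.6% and 21.4% of all genes tested did so. Bub3 rose by 1.01 ± 0.10 (edgeR adjusted p = 2.10e-05) and Cdc25b by 0.87 ± 0.22 (0.00747). The lowest adjusted p among the falls were those of Kif23 (-1.27 ± 0.10, 7.75e-06), Plk1 (-1.16 ± 0.12, 3.41e-05), Anln (-0.81 ± 0.09, 7.17e-05), Cenpe (-0.69 ± 0.08, 7.28e-05) and Aurka (-0.71 ± 0.09, 0.000116). Cdk1 fell by 0.53 ± 0.11 (0.00347), whereas Top2a was at -0.07 ± 0.09 (0.497). All but 2 of the 30 calls were kept under every alternative. That of Cenpa was lost without D3Dox_d4 replicate 3 (0.0519), and that of Cdc25c (0.0424) without any 1 library of these groups, NoDox_d2 replicate 2 or 3 or NoDox_d4 replicate 2 (up to 0.138).

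Genes that work beside the 43 were read from 6 further lists. The day 4 background for them is that 10.2% of all genes tested fell and 13.4% rose. Of 29 other centromere and kinetochore genes, 20 fell at day 4 and none rose, with a median log2 fold change of -0.54. The inner kinetochore genes Cenpi and Cenpk fell by 0.76 ± 0.12 (edgeR adjusted p = 0.000904) and 1.02 ± 0.16 (0.000948). Of 19 condensin and cohesin genes, 10 fell and none rose (median -0.35), among them Sgo1, which protects cohesin (-0.63 ± 0.09, 0.000424), and the condensin subunit Ncapg2 (-0.65 ± 0.11, 0.00126). Of 17 genes of APC/C subunits and regulators, only the inhibitor gene Fbxo5 was called (-0.33 ± 0.10, 0.0408), and the median of the list was -0.06.

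The list of 12 genes of MuvB, B-Myb, FoxM1, E2F and pocket proteins held calls in both directions at day 4. Foxm1 fell by 0.65 ± 0.13 at day 4 (edgeR adjusted p = 0.00334), as did E2f4 (-0.49 ± 0.11) and Tfdp1 (-0.50 ± 0.08), while the pocket protein gene Rbl2 rose by 0.84 ± 0.25 (0.0285), as it had by 1.13 ± 0.25 at day 2. In all, 4 of 12 fell and 2 rose, where 10.2% and 13.4% of all genes tested did. At day 2, Mybl2, which codes for B-Myb, rose by 1.77 ± 0.15 (9.00e-06), from 57.8 to 197 CPM. Of 8 G1 cyclin and kinase genes 3 fell at day 4, Ccnd1 (-0.63 ± 0.08, 0.000303), Ccnd2 (-0.44 ± 0.09) and Cdk6 (-0.73 ± 0.19). Of 17 CDK inhibitor and G2 checkpoint genes 5 rose and 3 fell. Ccng2, an atypical cyclin of resting cells, rose by 1.02 ± 0.10 (3.29e-05) and Cdkn1c, which codes for the inhibitor p57, by 1.17 ± 0.19 (0.00104), while the checkpoint kinase gene Chek1 fell by 0.92 ± 0.15 (0.00114). Genes on the opposite strand cover 21.0%, 23.4% and 30.7% of the exon length of Rbl2, Ccnd1 and Cdkn1c.

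**Figure D5:**
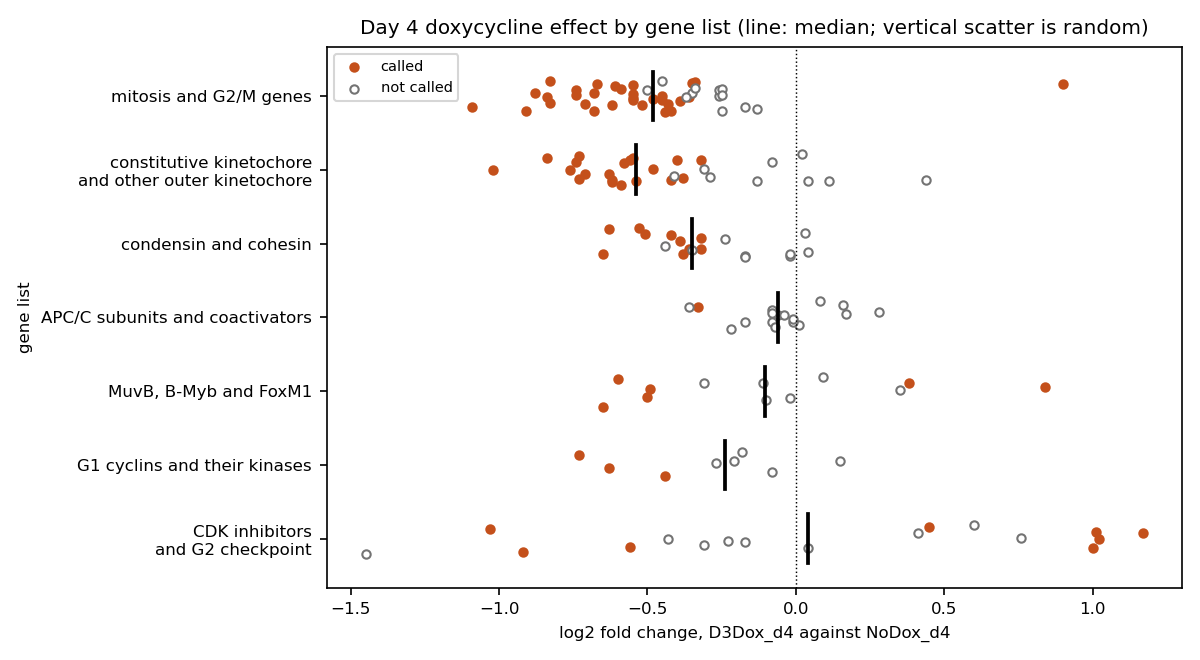
Log2 fold change of single genes in D3Dox_d4 against NoDox_d4 (horizontal axis) for the 43 mitosis and G2/M genes and 6 related lists, with filled points for genes called by edgeR and a line at each median. Kinetochore and condensin or cohesin genes lie mostly left of 0, with medians of -0.54 and -0.35, and the APC/C genes lie near 0.

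The TTTGAA word was present in 19 of the 25 genes that fell and had a promoter in the table, and in 6 of the other 11. Bub3, which rose, held the word 43 bases before a start. Mad2l1, Nuf2, Nusap1 and Plk4, which fell, held neither TTTGAA nor CCAAT in this window. These counts describe the genes shown and were not tested.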

How the data were processed

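Bulk RNA-seq libraries (12, in 4 groups of 3) were analysed from a table of raw counts per gene. The library kit was NEBNext Ultra II, and paired reads of 150 bp were trimmed with Trim Galore and kept at 50 bp or longer, per the labels' protocols. STAR, featureCounts, DESeq2, GRCm38 and mm10 are named in the submitters' processing notes. The deposited counts were made with featureCounts 2.0.1 and GENCODE vM25 without a strand setting, per the file headers.

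The counts were tested as deposited with edgeR 4.0.16 (limma 3.58.1, R 4.3.3), with TMM scaling, filterByExpr, 1 coefficient per group, all 12 libraries (8 residual degrees of freedom) and the quasi-likelihood F-test. P-values were adjusted by Benjamini-Hochberg over the 18109 genes tested. A gene was called at an adjusted p under 0.05, and "rose" and "fell" mean called. Each log2 fold change has a standard error (SE), taken as its size over the square root of F. CPM are edgeR's, with scaled library sizes; CPM per kilobase of exon used the table's gene lengths. A symbol was found for 55141 of 55487 Ensembl identifiers. Exon overlap was computed from the exon coordinates in the deposited table, and promoters were taken from RefSeq (GRCm38.p6).

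The genes, roles, related lists, markers and promoter words were chosen with earlier results of these data known. Per-library values are given for up to 5 called genes with the lowest adjusted p per direction and comparison, and for Mki67, Ccnb1, Cdk1 and Top2a. Those of Cdc20 and Kif20a are given outside this rule, and Cdc20 was added after its values were seen. From each related list up to 3 called genes per comparison could be named. Alternatives were the test of DESeq2 1.42.0, its size factors, scaling to the upper quartile, a filter of 1 CPM in 3 libraries or none, a block on the replicate number, a fit of the compared libraries alone, each library left out in turn, and both NoDox libraries numbered 1 left out. They were run for the 43 genes and not for the related lists. Between NoDox_d2 and NoDox_d4, the deviations of same-numbered libraries from their group means correlated at 0.55, 0.36 and 0.31 across genes. Replicates 2 and 3 also correlated across numbers, at 0.42 and 0.33. Only replicate 1 was set apart by these values, and a pairing of replicates 2 and 3 by number is not shown. The main fit had no block on the number.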

Additional observations from a re-analysis of the deposited data

Results flagged for a closer look

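For 18 genes the doxycycline effect at day 4 differed from that at day 2 by a test of the difference itself (edgeR interaction, adjusted p under 0.05). On the log2 scale, the day 4 effect minus the day 2 effect was -1.40 for Mki67, -1.15 for Kif23, -1.09 for Cenpf, -1.06 for Plk1, -0.84 for Espl1, -0.83 for Spc24 and -0.76 for both Birc5 and Incenp. It was -0.75 for Ccna2, -0.74 for Cenpe, -0.69 for Spc25, -0.63 for Nuf2, -0.59 for Mad2l1, -0.57 for Ttk, -0.56 for Kif4, -0.52 for Ube2c and -0.49 for Anln. Bub3 was the only gene with a positive difference that was called, at 0.91. Of these genes Ccna2, Plk1 and Kif23 were called higher at day 2, and Mad2l1 was called lower on both days. The differences of Espl1, Birc5, Spc25, Mad2l1, Ttk, Kif4, Ube2c and Anln were not called under every alternative run. Of 19 alternatives, the call was lost in 11 for Ube2c, 9 for Anln and 8 for Ttk.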

How the results depend on the processing

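Counts of the 43 genes called were within 1.5 times the main count, and no named fold change that was called changed sign, apart from what follows. At day 2, 3 genes were called higher and 5 lower, and 1 and 3 without a filter on low counts, where 7.69% and 6.59% of all genes tested were. With only the compared libraries 5 were higher, against 15.2% of all genes tested. Without both NoDox libraries numbered 1 the counts were 8 and 13, against 26.8% and 26.4% of all genes tested. Between the NoDox days, 1 higher and 2 lower became 0 lower without the filter (4 at an unadjusted p under 0.05), 0 and 0 with only the compared libraries (edgeR, 2 and 3 unadjusted), and 3 and 11 without both libraries numbered 1. Over all genes tested, 2.98% were lower without the filter, and 0.506% and 0.735% were called with only the compared libraries. Without both libraries numbered 1 the shares were 13.4% and 11%. Leaving out 1 library in the edgeR fit gave 1 to 6 higher and 0 to 10 lower at day 2, 1 to 1 and 24 to 31 at day 4, 1 to 1 and 10 to 18 for the difference, 1 to 2 and 0 to 3 between the NoDox days, and 2 to 2 and 26 to 30 between the doxycycline groups. Over all genes tested, these fits called 9.72% to 20.2% higher and 6.43% to 19.5% lower at day 2. At day 4 the shares were 9.16% to 16.5% and 5.47% to 13.1%. For the difference they were 3.36% to 14.2% and 3.18% to 12.7%. Between the NoDox days they were 2.74% to 9.05% and 2.86% to 8.01%, and between the doxycycline groups 16.3% to 25.7% and 15.7% to 24.6%. The cause of these shifts was not tested. With the replicate block, 3 genes were lower at day 2, where the calls of Plk1 (0.0521), Kif23 (0.0546), Plk4 (0.0524) and Bub1b (0.0590) were lost, and 2 were higher and 1 lower between the NoDox days. Over all genes tested, 12.6% were lower in that fit at day 2, and 4.94% and 5.23% were called between the NoDox days. Outside those NoDox groups, the numbers of no pair of groups correlated above 0.1 throughout, and there too the numbers are not shown to pair libraries. The median over all genes of the difference moved from 0.00 to -0.20 in the DESeq2 test, which tested 21051 genes, and to -0.11 without the filter. The median of the 43 genes stayed between -0.53 and -0.46 at day 4, -0.09 and 0.03 at day 2, -0.53 and -0.32 for the difference, and -0.11 and 0.07 between the NoDox days. The lowest count of a gene in a library was 566, and a gene that was not called is not shown to be unchanged.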
